A study of Homo sapiens with 8 samples.

Results

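The cytosolic ribosomal protein genes, which encode the proteins of the ribosomes that translate nuclear mRNAs, were followed in 143B and HOS osteosarcoma cells labelled sgNAT10 and in their NC controls. Members were chosen by symbol alone: RPL and RPS genes with a number, the P stalk genes RPLP0, RPLP1 and RPLP2, and RPSA, without the RPS6K kinases and without pseudogenes. The rule took 82 of the 13703 genes listed in either line, 50 of the large subunit and 32 of the small one. All 82 were listed in both lines and all 82 passed the filter on low values.

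Polyadenylated RNA was sequenced in 8 libraries. 2 carry the label sgNAT10 and 2 the label NC in each of the lines 143B and HOS, both established human osteosarcoma lines, of which 143B was derived from HOS. The series describes the sgNAT10 cells as a knockout of NAT10, the acetyltransferase that writes N4-acetylcytidine on RNA and acts in the processing of small-subunit ribosomal RNA. The labels name no guide, clone, time or separate culture, and each p-value therefore measures only how far these libraries spread, which may be technical.

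Every cell needs each ribosomal protein in a fixed proportion, and their mRNAs are among the most abundant in growing cells. Vertebrate ribosomal protein mRNAs are the textbook class of TOP mRNAs, named for a terminal oligopyrimidine tract: they start with a C followed by a run of C and U. Through this tract the kinase mTOR and the protein LARP1 govern how the mRNAs are translated and how long they last. Most ribosomal protein genes also have many processed pseudogenes, and reads from near-identical copies can be split or shared in counting, so the level of any one member carries that uncertainty.

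In 143B NAT10 RNA fell, with 9.05 and 7.19 FPKM (fragments adjusted for transcript length and library size) under sgNAT10 and 16.06 and 19.95 FPKM in NC (log2 change -1.06, SE 0.31, adjusted p = 0.0259, limma). In HOS the gene was not lower: the libraries labelled sgNAT10 had 21.13 and 19.14 FPKM and NC had 14.86 and 16.22 FPKM (log2 change 0.35, SE 0.10, adjusted p = 0.00544), a value that turned to -0.09 once trends with length and GC content were removed. In HOS the gene missed the threshold under median-ratio scaling (adjusted p = 0.259), under quantile normalization (adjusted p = 0.0896) and with sgNAT10 replicate 1 left out (adjusted p = 0.180). The 143B call was lost under median-ratio scaling (adjusted p = 0.0601) and without sgNAT10 replicate 1, sgNAT10 replicate 2 or NC replicate 2 (adjusted p = 0.109, 0.219 and 0.064). RNA level does not show whether an edited transcript still makes protein, and the HOS libraries are called by their label throughout. Of the 8 mesenchymal and osteoblast markers, 6 were listed in 143B. They summed there to between 501 and 792 FPKM under sgNAT10 and to between 1394 and 1818 FPKM in NC. VIM made up nearly all of these 143B sums, with 482 and 766 FPKM under sgNAT10 and 1339 and 1741 FPKM in NC. All 8 were listed in HOS, at between 1807 and 1878 FPKM in the libraries labelled sgNAT10 and between 1447 and 1642 FPKM in NC. COL1A1, the main collagen of bone, was 1.87 and 1.32 FPKM under sgNAT10 against 3.84 and 5.44 FPKM in NC in 143B, while COL1A2 and THY1 were not listed there. The epithelial genes CDH1, KRT5 and KRT14 and the blood genes PTPRC, CD3E and HBB were listed in neither line. The other 2 epithelial markers were listed in both. EPCAM, a surface adhesion protein, had 1.99 and 3.44 FPKM under sgNAT10 in 143B against 0.87 and 1.88 FPKM in NC, and 18.7 and 20.5 FPKM in the HOS libraries labelled sgNAT10 against 18.2 and 15.6 FPKM in HOS NC. CLDN4, a tight junction protein, fell in 143B, with 0.42 and 0.12 FPKM under sgNAT10 against 1.74 and 1.43 FPKM in NC (adjusted p = 0.00575). CD68, the one listed blood marker, had 50.2 and 45.6 FPKM under sgNAT10 in 143B, against 126 and 103 FPKM in NC. In 143B COL1A1, CLDN4 and CD68 fell. EPCAM missed the threshold in both lines (limma adjusted p = 0.149 in 143B and 0.0925 in HOS). In HOS COL1A1 and CD68 missed it too (adjusted p = 0.129 and 0.447), while COL1A2 and THY1 rose (adjusted p = 3e-05 and 0.00579). The endothelial markers summed to between 1.86 and 2.02 FPKM in the HOS libraries labelled sgNAT10 and between 1.09 and 1.11 FPKM in HOS NC. The part of these markers in the results below was not tested. The listed values of a library added up to 484793 FPKM at the lowest and 798137 FPKM at the highest, and read depth is unknown.

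The start of the genes shows the tract that defines the class. RefSeq windows of GRCh38.p14, with 15 bases before the annotated start and the first 15 bases from it, were found for 66 of the 82 members. Shown here are the genes on which the comparison of the lines turns, read on the gene's own strand from 5′ to 3′. Capitals mark a C at the start base with at least 4 further bases that are each C or T, and a window with no capitals lacks such a run.
RPS27, chr1:153990747-153990776, plus strand: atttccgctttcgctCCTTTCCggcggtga
RPL34, chr4:108620561-108620590, plus strand: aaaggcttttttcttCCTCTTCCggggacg
RPL39, chrX:119791616-119791645, minus strand: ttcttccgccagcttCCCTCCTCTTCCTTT
RPL35, chr9:124861943-124861972, minus strand: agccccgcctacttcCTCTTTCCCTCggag
RPLP1, chr15:69452803-69452832, plus strand: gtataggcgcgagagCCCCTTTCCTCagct
RPLP0, chr12:120201097-120201126, minus strand: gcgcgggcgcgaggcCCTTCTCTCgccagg
RPS29, chr14:49598696-49598725, minus strand: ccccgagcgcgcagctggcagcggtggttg
RPS26, chr12:56041903-56041932, plus strand: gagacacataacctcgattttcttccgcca
RPL7L1, chr6:42879601-42879630, plus strand: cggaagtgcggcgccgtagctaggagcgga

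The tract was searched on the gene's strand at every annotated start of a gene, and a gene counted if any start held it. It stood exactly at the start in 47 of the 66 members (71.2%), in 701 of 9867 other tested genes (7.10%) and in 1404 of all 27305 genes with a window (5.14%). Large and small subunit genes held it about equally often, 29 of 41 (70.7%) and 18 of 25 (72.0%). Moving the start by up to 5 bases brought in further members, to 81.8% of 66, and also more of the other tested genes, to 29.6%. Annotated starts can miss the used start by a few bases, so a window without the tract says only that these letters are not in it. The tract of RPL39 runs to the end of the window.

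Ribosomal protein genes took a larger share of the listed FPKM under sgNAT10 in 143B and a smaller share in HOS. In 143B the share was 41.9% and 40.6% under sgNAT10, against 27.0% and 25.4% in NC. In HOS it was 20.4% and 21.1% in the libraries labelled sgNAT10, against 27.8% and 28.2% in NC. In each line the groups lay apart, in opposite directions, and the NC libraries of the lines lay close together. The means were 41.3% ± 0.927 and 26.2% ± 1.12 in 143B, and 20.8% ± 0.472 and 28.0% ± 0.241 in HOS (sgNAT10 and NC, SD, n = 2 each). The exact permutation test of 2 libraries against 2 gave p = 0.333, two-sided, which is the smallest it can give. In bulk RNA, fewer cells of a kind and less of these mRNAs per cell cannot be told apart.

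**Figure D1:**
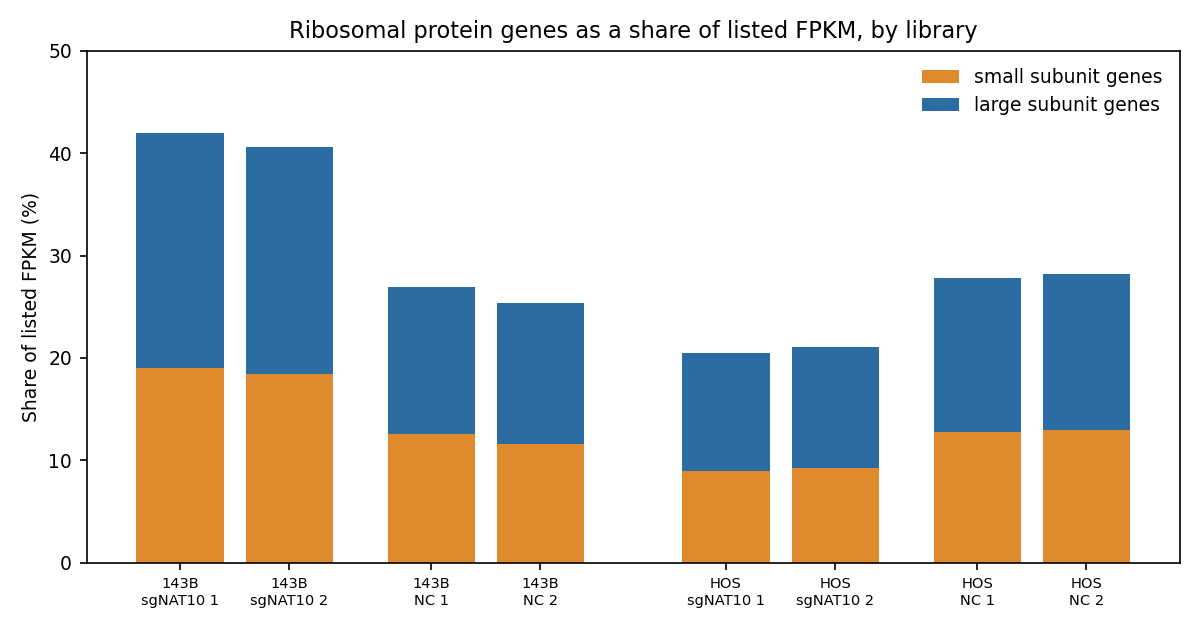
Share of the summed listed FPKM (%) held by small subunit genes (orange) and large subunit genes (blue) in each of the 8 libraries. The 143B bars reach 41.9% and 40.6% under sgNAT10 against 27.0% and 25.4% in NC, and the HOS bars reach 20.4% and 21.1% in the libraries labelled sgNAT10 against 27.8% and 28.2% in NC.

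The summed FPKM of the family differed in both lines while the sum of all other listed genes differed less. The family summed to 324826 FPKM under sgNAT10 and 163621 FPKM in NC in 143B, and to 101711 FPKM in the HOS libraries labelled sgNAT10 and 158907 FPKM in HOS NC (means of 2 libraries). All other listed genes summed to 461881 FPKM under sgNAT10 and 460428 FPKM in NC in 143B, with overlapping libraries (exact permutation p = 1.0). In HOS they summed to 387778 FPKM in the libraries labelled sgNAT10 and 408371 FPKM in NC.

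Large and small subunit genes moved together within each line. In 143B the large subunit took 22.9% and 22.2% of listed FPKM under sgNAT10, against 14.4% and 13.8% in NC, and the small subunit took 19.0% and 18.5% against 12.5% and 11.6%. The ratio of large to small subunit FPKM was 1.21 and 1.2 under sgNAT10 and 1.15 and 1.19 in NC, a difference of 0.03 that turned to -0.17 without the 5 members with the highest FPKM. In HOS the small subunit lay lower by more than the large one. The large subunit took 11.5% and 11.8% in the libraries labelled sgNAT10, against 15% and 15.2% in NC, and the small subunit took 8.92% and 9.28% against 12.8% and 13.0%. The ratio there was 1.29 and 1.27 in the libraries labelled sgNAT10 and 1.17 in both NC libraries, so the groups lay apart (exact permutation p = 0.333, the smallest possible).

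Gene by gene, most members were higher under sgNAT10 in 143B. Changes are differences of mean log2(FPKM + 1), sgNAT10 minus NC, tested with limma across all genes of the line (Benjamini-Hochberg adjusted p under 0.05). In 143B 37 of the 82 members rose and 3 fell, RPL30, RPL39L and RPLP0, where 12.9% of all 11419 tested genes rose and 25.4% fell. The median change of the members was 1.01 (quartiles 0.56 and 1.33), against -0.25 for all tested genes. Of the 42 members that missed the threshold 35 had positive values, and 27 of the 42 had both sgNAT10 libraries above both NC libraries. In all, 64 members were higher and 5 lower without overlap of the libraries, where 23.9% of all genes were higher and 42.8% lower. At least a 2-fold change on this scale together with the threshold was met by 34 members upward and 3 downward, where 9.6% and 20.4% of all genes met it.

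The count in 143B depended on the libraries. Leaving out sgNAT10 replicate 1 left 17 members called higher, where 8.4% of all genes were, and leaving out sgNAT10 replicate 2 left 8, where 5.72% were. Leaving out NC replicate 1 gave 44 members, where 11.9% of genes were called higher, and leaving out NC replicate 2 gave 40, where 18.4% were. By subunit, 24 large and 13 small subunit genes rose, with medians of 0.99 and 1.03, and the 3 that fell are all named as large subunit genes.

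Among small subunit genes of 143B, RPS27 and RPS29 rose. RPS27, a small subunit protein with a zinc-binding motif, had 12459 and 15919 FPKM under sgNAT10 and 3877 and 3436 FPKM in NC. Its change was 1.95 (SE 0.41, adjusted p = 0.00682), and the adjusted p was 0.133 without sgNAT10 replicate 1 and 0.229 without sgNAT10 replicate 2. RPS29, which lies in the head of the small subunit, had 6692 and 7486 FPKM under sgNAT10 against 2475 and 1846 FPKM in NC, a change of 1.73 (SE 0.36, adjusted p = 0.00713). Its adjusted p was 0.104 without sgNAT10 replicate 1 and 0.152 without sgNAT10 replicate 2.

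Among large subunit genes of 143B the largest rises were those of RPL39, RPL34, RPL37A, RPL35 and RPL23. RPL39, a very small protein at the wall of the tunnel through which new chains leave, had 2432 and 4162 FPKM under sgNAT10 and 784 and 778 FPKM in NC. Its change was 2.02 (SE 0.35, adjusted p = 0.00347). RPL34 had 2161 and 2472 FPKM under sgNAT10 and 609 and 541 FPKM in NC, a change of 2.01 (SE 0.29, adjusted p = 0.00196). With single libraries left out, the log2 change of RPL39 in 143B stayed past the threshold at 1.64 to 2.41 and the log2 change of RPL34 in 143B at 1.91 to 2.10. RPL37A had 10582 and 8814 FPKM under sgNAT10 and 2646 and 2214 FPKM in NC, and RPL23 had 4925 and 4284 FPKM against 1204 and 1284 FPKM. Their changes were 2.0 and 1.88 (SE 0.37 and 0.32, adjusted p = 0.00465 and 0.00337). RPL35, beside the tunnel exit, had 20801 and 23661 FPKM under sgNAT10, the highest of all members, and 7650 and 4579 FPKM in NC (change 1.91, SE 0.47, adjusted p = 0.0136). The NC libraries of RPL35 differed from each other more than those of the others named here. The calls for RPL37A (adjusted p = 0.112 and 0.0846) and RPL35 (adjusted p = 0.259 and 0.325) were lost without sgNAT10 replicate 1 and without sgNAT10 replicate 2.

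The 3 members that fell in 143B did so against the direction of the family. RPLP0, the base of the stalk that recruits and activates translation factors, had 1683 and 1632 FPKM under sgNAT10 and 3748 and 4320 FPKM in NC. Its change was -1.28 (SE 0.33, adjusted p = 0.015), and it stood at place 53 of 82 under sgNAT10, against place 8 in NC. RPL30 had 359 and 489 FPKM under sgNAT10 and 809 and 1039 FPKM in NC (change -1.13, SE 0.29, adjusted p = 0.0156). RPL39L, a paralogue of RPL39 best known from the testis, had 24.4 and 26.6 FPKM under sgNAT10 and 76.1 and 65.9 FPKM in NC (change -1.44, SE 0.25, adjusted p = 0.00339). None of the 3 overlapped between groups. The call for RPLP0 was lost without sgNAT10 replicate 1 or replicate 2 (adjusted p = 0.254 and 0.283), that for RPL30 without sgNAT10 replicate 1 (adjusted p = 0.212), and both under median-ratio scaling.

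In HOS nearly the whole family was lower in the libraries labelled sgNAT10, by smaller amounts and with closer replicates. 70 of the 82 members fell and 2 rose, RPL7L1 and RPS26, where 23% of all 11957 tested genes fell and 45.5% rose. The median change was -0.60 (quartiles -0.85 and -0.35, range -1.48 to 0.61), against 0.19 for all tested genes. Without overlap of the libraries, 73 members were lower and 3 higher, where 29.2% of all genes were lower and 53.9% higher. 8 members passed a 2-fold change downward and 0 upward, where 0.828% and 4.93% of all genes did. By subunit, 43 large and 27 small subunit genes fell, with medians of -0.51 and -0.72, and 1 of each rose. The 10 members that missed the threshold had values between -0.19 and 0.13.

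RPS27 and RPLP1 had the largest falls in HOS as deposited. RPS27 had 2866 and 3214 FPKM in the libraries labelled sgNAT10 and 8590 and 8290 FPKM in NC, where it was the highest of all members. Its change was -1.48 (SE 0.08, adjusted p = 7.82e-10). RPLP1, which pairs with RPLP2 on the stalk, had 1129 and 1198 FPKM in the libraries labelled sgNAT10 and 3057 and 3375 FPKM in NC (change -1.47, SE 0.08, adjusted p = 8.1e-10). It stood at place 44 in the libraries labelled sgNAT10, against place 11 in NC. RPL26, at the rim of the exit tunnel, had 2865 and 3097 FPKM in the libraries labelled sgNAT10 and 6448 and 6451 FPKM in NC (change -1.11, SE 0.08, adjusted p = 9.27e-09). RPS29 and RPS25 fell too, with changes of -1.09 and -1.06. With trends of length and GC content removed, the changes were -0.91 for RPS27, -1.13 for RPLP1, -0.73 for RPL26, -0.81 for RPS29 and -0.99 for RPS25. For each of these 5 genes both libraries labelled sgNAT10 lay below both NC libraries by far more than replicates differed.

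The 2 members that rose in HOS also rose in 143B. RPL7L1, a relative of RPL7 known from large subunits in assembly, had 70.6 and 70.8 FPKM in the HOS libraries labelled sgNAT10 and 46.5 and 45.5 FPKM in NC (change 0.61, SE 0.09, adjusted p = 1.25e-05). In 143B it had 67.6 and 55.6 FPKM under sgNAT10 and 20.0 and 36.3 FPKM in NC (change 1.16, SE 0.32, adjusted p = 0.0207), a call lost without sgNAT10 replicate 1 or NC replicate 1 (adjusted p = 0.0753 and 0.0781). RPS26, a small subunit protein at the mRNA exit that is also mutated in Diamond-Blackfan anaemia, is named here after its values were seen. It had 180 and 205 FPKM in the HOS libraries labelled sgNAT10 and 146 and 181 FPKM in NC (change 0.24, SE 0.10, adjusted p = 0.0468). Those HOS groups overlapped. In 143B RPS26 had 1159 and 1094 FPKM under sgNAT10 and 402 and 286 FPKM in NC, a change of 1.73 (SE 0.28, adjusted p = 0.00293). Neither gene has the tract at its window's start in the sequences above.

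Set side by side, 65 of the 82 members had a positive value in 143B and a negative one in HOS, and 0 the reverse. 10 were negative and 7 positive in both. By the calls, 34 members rose in 143B and fell in HOS (3.63% of the 10655 genes tested in both lines did so). In both lines 3 fell (2.73% of genes), and RPL7L1 and RPS26 rose. 33 fell in HOS alone among the calls, RPS3 rose in 143B alone among the calls, and 9 passed the threshold in neither line. Across the 82 genes, which share their libraries and are not independent, the change in 143B and the change in HOS correlated at r = -0.11 (rho = -0.16).

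**Figure D2:**
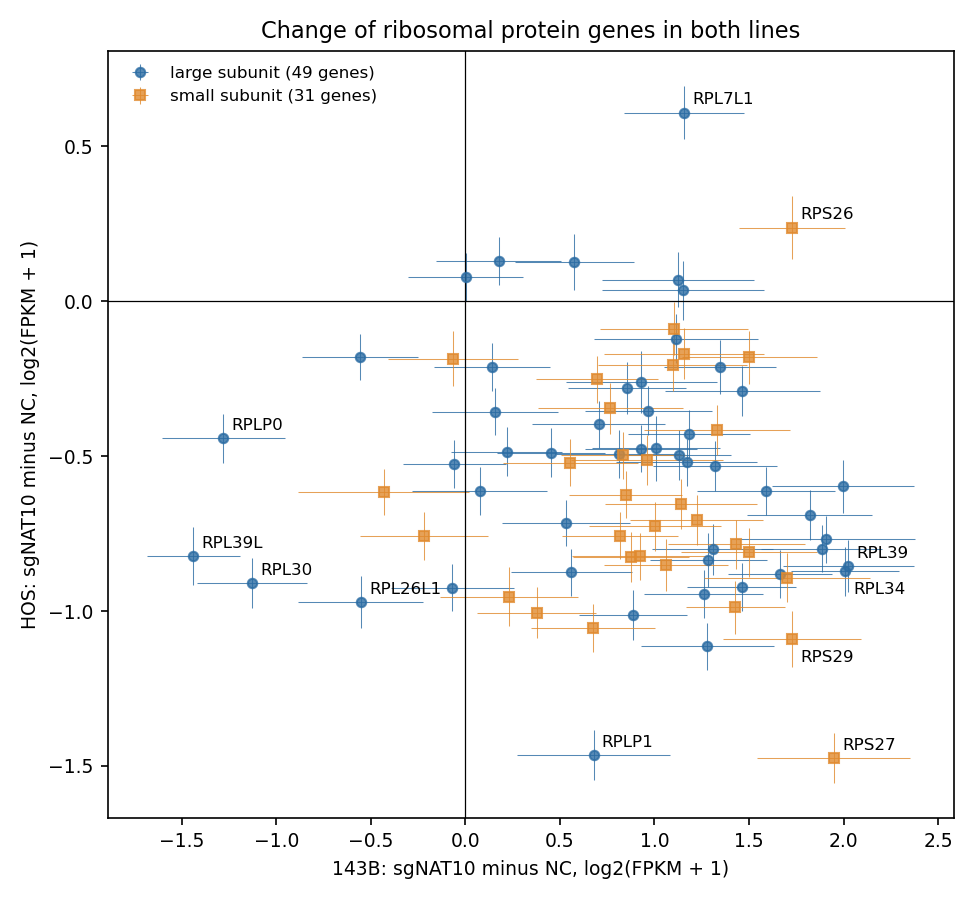
Change of 80 of the 82 members in 143B (horizontal) and in HOS (vertical), as sgNAT10 minus NC in log2(FPKM + 1), for 49 large subunit genes (blue circles) and 31 small subunit genes (orange squares), with bars of 1 SE. Of the 80 points, 63 lie to the right of zero and below it, and 10 lie to the left, RPLP0, RPL30 and RPL39L among them.

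The difference between the lines was tested directly, as the 143B change minus the HOS change, in a fit of all 8 libraries. This fit used a spread shared by both lines, although replicates lay further apart in 143B than in HOS. The SE of the difference was 0.26 for RPS27, 0.23 for RPLP0 and 0.23 for RPL34. These lie below the SE of their 143B changes alone, 0.41, 0.33 and 0.29, and the calls depend on that shared spread. The difference was positive for 67 members and negative for 1, RPLP0, where 12.9% of the 10655 genes were positive and 36.2% negative. The median difference of the members was 1.48 (quartiles 1.06 and 2.06), against -0.44 for all tested genes. Among the members named, RPS27 had a difference of 3.42 (SE 0.26, adjusted p = 6.33e-05). RPL34 and RPL39 followed with 2.88 each (SE 0.23 and 0.34, adjusted p = 6.6e-05 and 0.00025), then RPS29 with 2.82 and RPL23 with 2.68. All of them rose in 143B and fell in HOS, though the fall of RPL39 missed the threshold once trends with length and GC content were removed (change -0.11, adjusted p = 0.175). RPLP0 differed by -0.84 (SE 0.23, adjusted p = 0.0137), with a fall in both lines that was larger in 143B, though its HOS value was 0.20 under quantile normalization. The differences of RPL39L and RPL30, -0.62 and -0.22, missed the threshold. By subunit, 38 large and 29 small subunit genes had a positive difference, with medians of 1.36 and 1.63.

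**Figure D3:**
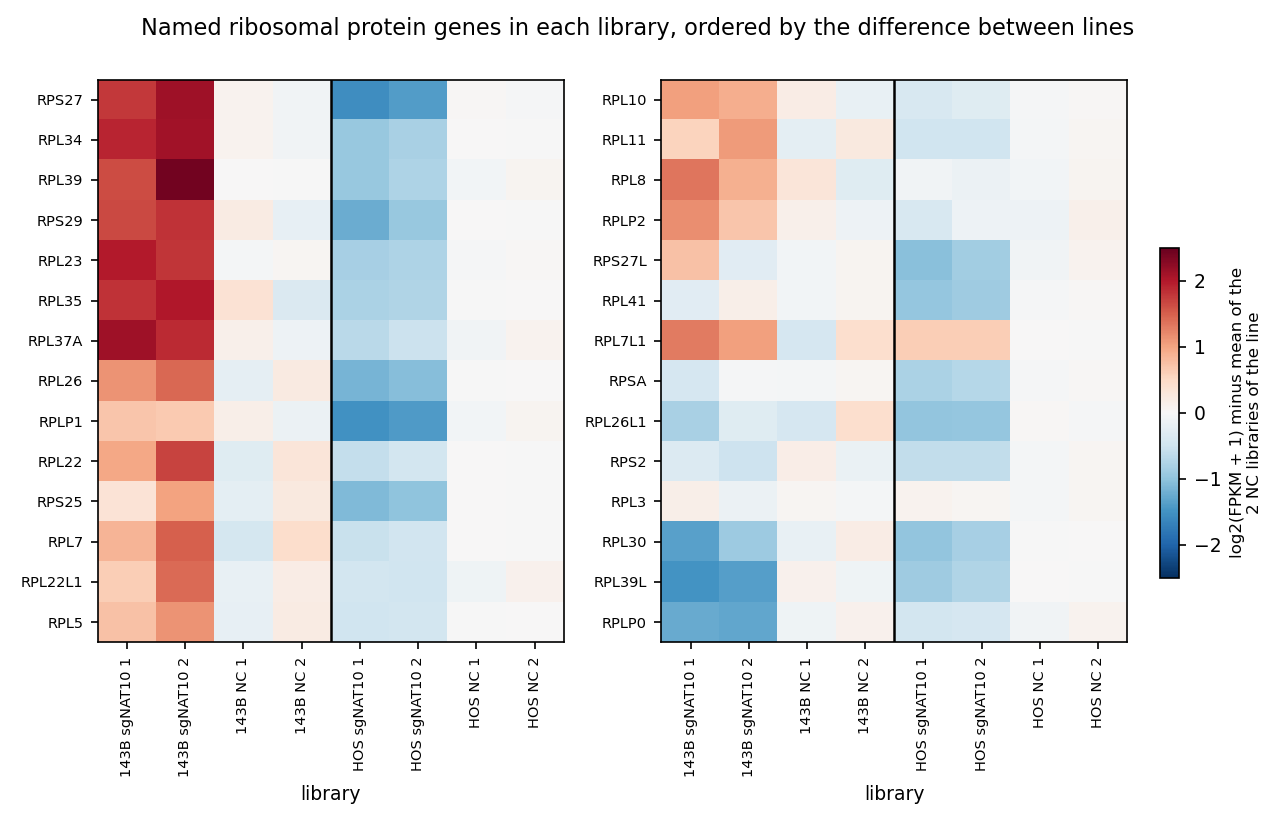
Value of each of the 28 members named by rule in each library, as log2(FPKM + 1) minus the mean of the NC libraries of the line (colour scale, red above and blue below), ordered by the difference between lines from RPS27 to RPLP0. The 143B sgNAT10 columns are red for most genes and the HOS sgNAT10 columns blue, with RPL30, RPL39L and RPLP0 blue in both and RPL7L1 red in both. RPL26L1, RPL41, RPS2 and RPSA also had negative changes in both lines.

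Averaged over both lines, the changes were small. The mean change came from the same fit of all libraries, and its calls depend on the spread shared by both lines. 18 members rose and 8 fell in the mean change, where 13.1% of genes rose and 17.6% fell, and 56 members missed the threshold. Leaving out single HOS libraries left between 4 and 8 members rising (sgNAT10 replicate 1 gave 8, sgNAT10 replicate 2 gave 4, and either NC library gave 6) and 3 falling, where 6.43%, 6.3%, 6.69% and 6.3% of all genes rose and 7.53%, 7.1%, 8.92% and 6.83% fell in the same order. Leaving out 143B NC replicate 1 gave 29 rising, where 15.7% of genes rose and 29% fell. The median was 0.23, against -0.06 for all tested genes. The 8 that fell were RPL26L1, RPL30, RPL39L, RPL41, RPLP0, RPLP1, RPS2 and RPSA. RPS2, the highest member in 143B NC, had 11223 and 10004 FPKM under sgNAT10 and 16115 and 12679 FPKM in NC in 143B. In HOS it had 4224 and 4182 FPKM in the libraries labelled sgNAT10 and 6261 and 6628 FPKM in NC. Its change was -0.43 in 143B (adjusted p = 0.483) and -0.62 in HOS (adjusted p = 2.75e-06), without overlap in either line, and the HOS value was 0.063 under quantile normalization. With each library rescaled to a common sum, 15 members rose and 11 fell in the mean, where 9.43% and 17.7% of genes did.

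How libraries are scaled set the size of the change but not which line had the positive median. In 143B the median of the members was 1.01 as deposited, 0.68 with a common sum, 1.28 with median-ratio scaling and 0.39 with quantile normalization. In HOS these medians were -0.60, -0.39, -0.83 and -0.15. The median of all tested genes moved with the scaling too: it was -0.53 in 143B and 0.37 in HOS with a common sum, and -0.02 and -0.01 with median-ratio scaling, beside -0.25 and 0.19 as deposited. Quantile normalization, which forces the same distribution on every library, also moved the split of calls. Under it 34 members rose and 9 fell in 143B, where 24.4% and 25% of genes did, and 19 rose and 43 fell in HOS, where 33% and 31.8% did. The difference between lines was then positive for 34 members and negative for 8, where 26.4% and 28.9% of genes were. Removing the trend of each library with transcript length and GC content left medians of 0.78 in 143B and -0.39 in HOS, with 54 members up and 4 down in 143B, where 27% and 28% of genes were, and 4 up and 66 down in HOS, where 31.6% and 33.2% were.

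**Figure D4:**
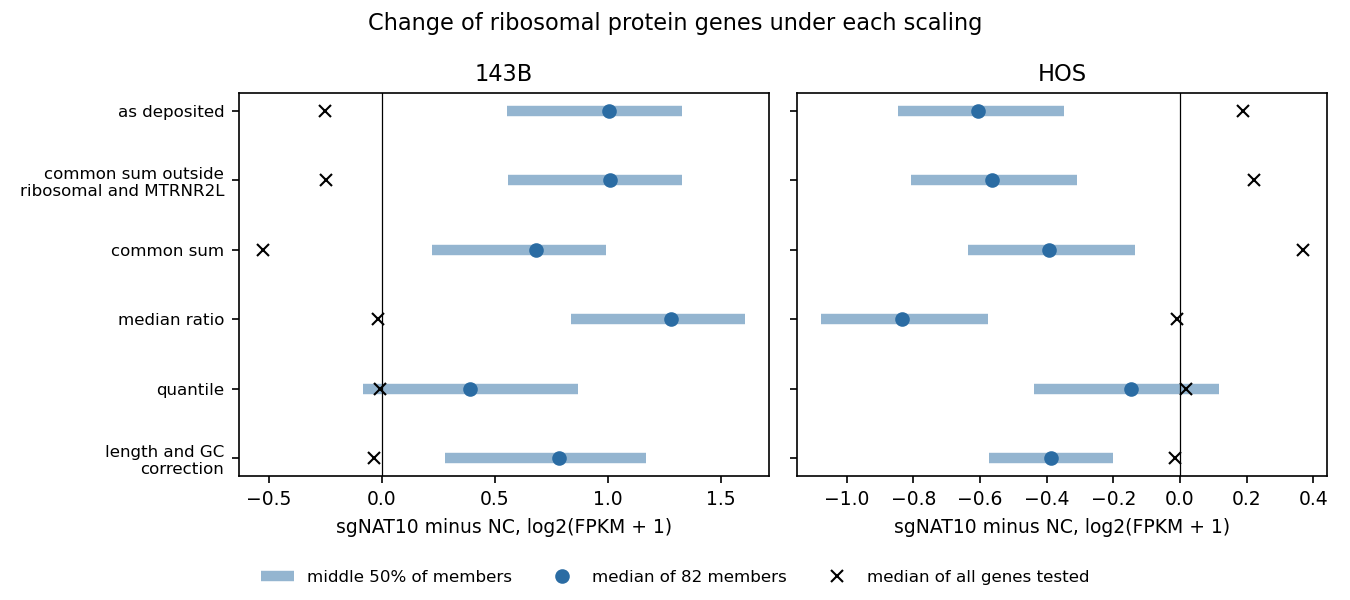
Median change of the 82 members (blue points) with their middle 50% (bars) and the median of all tested genes (crosses), as sgNAT10 minus NC in log2(FPKM + 1), under 6 ways of scaling the libraries. The member median stays positive in 143B, between 0.39 and 1.28, and negative in HOS, between -0.83 and -0.15.

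To show how members differed among themselves, each library was also centred on the mean log2 value of the family. Relative to it, 9 members rose and 11 fell in 143B, where 2.59% of all genes rose and 64.3% fell, and 27 rose and 35 fell in HOS, where 80.8% of genes rose and 2.55% fell. 6 members, RPL23, RPL34, RPL36A, RPL39 and RPS27 among them, lay above the family in 143B and below it in HOS. RPL3, RPL4, RPLP0 and RPS28 did the reverse. RPL26L1, RPL30, RPL39L, RPL41 and RPSA lay below the family in both lines, and RPS26 lay above it in both. The first of these groups had a median transcript length of 572 bases and the second one of 1346 bases, where all 82 had a median of 757 bases. RPL36A, RPL4 and RPS28 are named after their values were seen.

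Length and base composition ran with the changes to differing degrees. Across the 82 members the change correlated with log2 transcript length at r = -0.25 (rho = -0.31) in 143B and r = 0.51 (rho = 0.39) in HOS. With GC content it correlated at r = -0.08 (rho = -0.19) in 143B and r = 0.37 (rho = 0.43) in HOS. Over all tested genes the correlations with length were r = -0.08 in 143B and 0.32 in HOS, and with GC content r = -0.37 and 0.29. These are descriptions across genes of the same libraries. In 143B the replicates also differed in a way that both labels shared: the gap between replicates 1 and 2 across the 82 members correlated at r = 0.69 between sgNAT10 and NC, and with GC content at r = 0.59 within sgNAT10 and 0.69 within NC. The median absolute gap was 0.32 under sgNAT10 and 0.35 in NC in 143B, against 0.09 in the HOS libraries labelled sgNAT10 and 0.07 in HOS NC, on the log2 scale.

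The P stalk has 3 genes among the members. RPLP0 fell in both lines as deposited. In HOS it had 2342 and 2385 FPKM in the libraries labelled sgNAT10 and 3036 and 3401 FPKM in NC (change -0.44, adjusted p = 0.000125). Quantile normalization turned this HOS value to 0.20 (adjusted p = 0.00197). RPLP1 had 9501 and 9307 FPKM under sgNAT10 and 6500 and 5317 FPKM in NC in 143B, without overlap, and missed the threshold there (change 0.68, SE 0.40, adjusted p = 0.215, and -0.41 under quantile normalization). RPLP2 had 9557 and 6873 FPKM under sgNAT10 and 4635 and 3898 FPKM in NC in 143B, also without overlap (change 0.93, SE 0.40, adjusted p = 0.0959). In HOS RPLP2 had 1257 and 1522 FPKM in the libraries labelled sgNAT10 and 1521 and 1805 FPKM in NC, which overlapped (change -0.26, adjusted p = 0.0272, and 0.10 under quantile normalization). It missed the threshold without HOS sgNAT10 replicate 1 (change -0.12, adjusted p = 0.307) and without HOS NC replicate 2 (change -0.14, adjusted p = 0.274). The difference between lines was positive for RPLP1, at 2.14, and for RPLP2, at 1.19 (adjusted p = 0.00995), and negative for RPLP0.

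RPL5 and RPL11 form a particle with the 5S ribosomal RNA that binds MDM2 when ribosome assembly fails. RPL5 had 948 and 1229 FPKM under sgNAT10 and 492 and 653 FPKM in NC in 143B (change 0.93, adjusted p = 0.0357), a call lost without either sgNAT10 library or without NC replicate 1. Rescaling ended the 143B call of RPL5 too, with adjusted p = 0.138 for a common sum, 0.0589 for median-ratio scaling and 0.105 for quantile normalization. RPL11 had 1474 and 2092 FPKM under sgNAT10 and 846 and 1184 FPKM in NC in 143B (change 0.81, adjusted p = 0.0825). In HOS both fell, by 0.48 and 0.49 on the log2 scale, without overlap. Quantile normalization gave -0.12 for RPL5 (adjusted p = 0.0512), which ended its call, and 0.11 for RPL11. RPSA, which also serves as a laminin receptor precursor, had 2200 and 2887 FPKM under sgNAT10 and 2848 and 3027 FPKM in NC in 143B, where the groups overlapped (change -0.22, adjusted p = 0.64). It fell by 0.76 in HOS.

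At other sites on the ribosome and among disease genes, the medians had the signs of the family's. Of 8 genes at the rim of the exit tunnel, 6 rose in 143B and 8 fell in HOS, with medians of 1.39 and -0.81. Of 14 genes of the small subunit head, 5 rose in 143B and 10 fell in HOS, with medians of 1.12 and -0.68, and RPS28 had -0.07 and -0.19. Of 18 genes mutated in Diamond-Blackfan anaemia, an inherited failure of red cell production, 13 rose in 143B, and 15 fell and 1 rose in HOS, with medians of 1.29 and -0.69. The family medians beside them are 1.01 and -0.60, and 12.9% of all tested genes rose in 143B, while 23% fell and 45.5% rose in HOS.

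A few further members are given for their values. RPL3, which lines the peptidyl transferase centre, had 1718 and 1407 FPKM under sgNAT10 and 1605 and 1504 FPKM in NC in 143B, and 1441 and 1403 FPKM against 1309 and 1389 FPKM in HOS. Its changes of 0.00 and 0.08 missed the threshold in both lines (SE 0.30 and 0.08). RPL41, which encodes the shortest protein of the family, had 1702 and 2313 FPKM under sgNAT10 and 1992 and 2176 FPKM in NC in 143B. In HOS it had 1978 and 2075 FPKM in the libraries labelled sgNAT10 and 3778 and 3914 FPKM in NC, a fall of 0.92 on the log2 scale. RPL8 was among the 5 highest members of 143B. RPL8 had 12438 and 9202 FPKM under sgNAT10 and 6118 and 3995 FPKM in NC. Its groups lay apart and it missed the threshold (change 1.11, adjusted p = 0.0717). RPL10, which completes the large subunit late in its assembly, rose in 143B with 3787 and 3491 FPKM under sgNAT10 against 2119 and 1631 FPKM in NC (adjusted p = 0.0488), a call lost without sgNAT10 replicate 1, sgNAT10 replicate 2 or NC replicate 2 (adjusted p = 0.407, 0.347 and 0.0862). Rescaling ended the call of RPL10 too, with adjusted p = 0.0953 for a common sum, 0.0883 for median-ratio scaling and 0.0525 for quantile normalization. RPS25 had 849 and 1335 FPKM under sgNAT10 and 563 and 788 FPKM in NC in 143B (change 0.67, adjusted p = 0.137). In HOS RPS25 had 1171 and 1253 FPKM in the libraries labelled sgNAT10 against 2522 and 2514 FPKM in NC.

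The highest members took a smaller part of the family's FPKM in the HOS libraries labelled sgNAT10. The 5 highest members held 14.7% of the family's FPKM in the HOS libraries labelled sgNAT10 and 18.3% in HOS NC, with both libraries labelled sgNAT10 below both NC libraries. In 143B the 5 highest held 22.2% under sgNAT10 and 23.3% in NC, with overlapping libraries. The median member stood at 2675 FPKM under sgNAT10 and 1590 FPKM in NC in 143B, and at 1185 FPKM in the HOS libraries labelled sgNAT10 and 1678 FPKM in HOS NC. Small subunit genes had the higher median in every group, at 3867 and 2140 FPKM in 143B and 1276 and 1893 FPKM in HOS, against 2106 and 1268 FPKM and 1079 and 1477 FPKM for the large subunit (sgNAT10 and NC each).

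Of the 5 paralogues among the members, RPL39L had the largest change in its ratio to its partner in 143B and RPL7L1 had it in HOS. RPL39L stood at 1.0% and 0.639% of RPL39 in FPKM under sgNAT10 in 143B, against 9.70% and 8.47% in NC. The numerator fell and the denominator rose. In HOS both genes fell and the ratio was 4.5% and 4.44% in the libraries labelled sgNAT10, against 4.70% and 4.19% in NC, which overlapped. RPL26L1 stood at 0.876% and 1.02% of RPL26 under sgNAT10 in 143B, against 2.96% and 3.90% in NC, and at 1.92% and 1.79% in the HOS libraries labelled sgNAT10 against 1.72% and 1.67% in HOS NC. RPS27L, known as a target of p53, stood at 0.216% and 0.0801% of RPS27 under sgNAT10 in 143B, against 0.383% and 0.483% in NC. In HOS its ratio was higher in the libraries labelled sgNAT10, at 1.55% and 1.57% against 1.01% and 1.19% in NC, since RPS27 was lower by more than RPS27L.

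The remaining 2 pairs moved less in 143B. RPL22L1 stood at 5.60% and 6.03% of RPL22 under sgNAT10 in 143B and at 7.5% and 6.48% in NC, with both genes up (changes 1.01 and 1.32). Both calls were lost without sgNAT10 replicate 2, RPL22L1 at 0.61 (adjusted p = 0.422) and RPL22 at 0.96 (adjusted p = 0.0805), and that of RPL22L1 also without NC replicate 1 (adjusted p = 0.0647). In HOS the RPL22L1 ratio was 3.82% and 3.39% in the libraries labelled sgNAT10 against 3.23% and 3.85% in NC, which overlapped. RPL7L1 stood at 6.77% and 3.55% of RPL7 under sgNAT10 in 143B, on both sides of the 4.90% and 4.81% in NC. In HOS it was 4.97% and 4.70% in the libraries labelled sgNAT10 against 2.20% and 2.18% in NC, with RPL7 falling and RPL7L1 rising. Each ratio that lay apart had an exact permutation p of 0.333, the smallest possible. Without the 5 paralogues, 35 of 77 members rose and 2 fell in 143B, and 1 rose and 66 fell in HOS. The shares of all tested genes were 12.9% rising and 25.4% falling in 143B, and 45.5% and 23% in HOS.

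**Figure D5:**
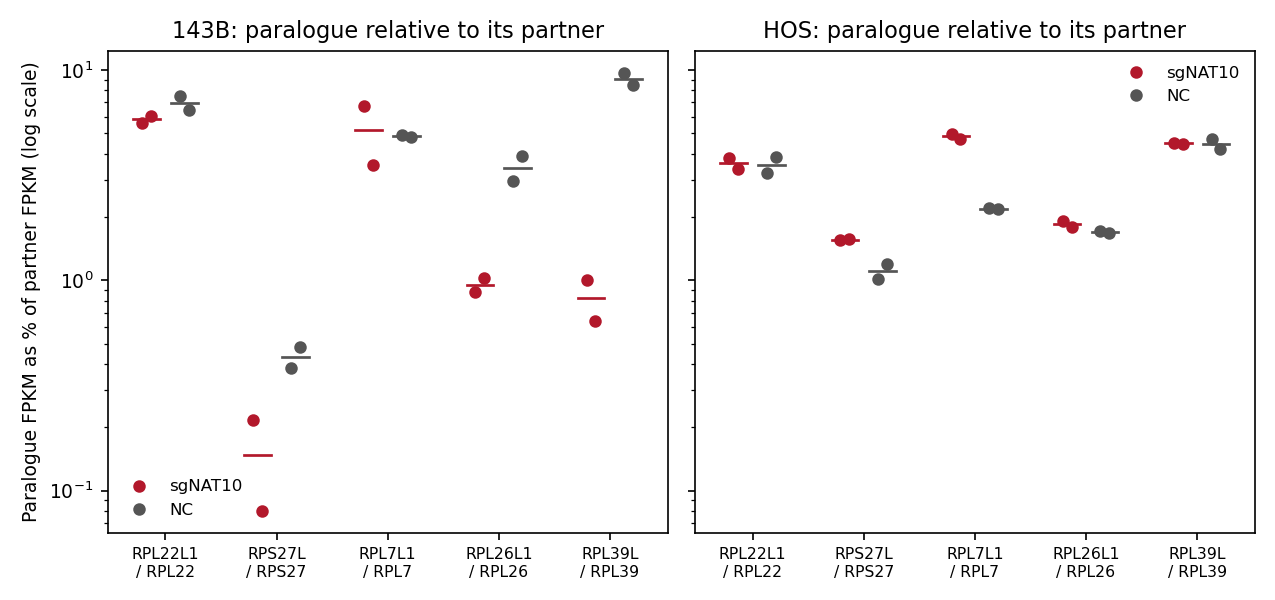
FPKM of each paralogue as a percentage of its partner (log axis) in 143B (left) and HOS (right), with points for single libraries and bars for the means of 2, sgNAT10 in red and NC in grey. In 143B RPL39L lies at 1.0% and 0.639% of RPL39 under sgNAT10 against 9.70% and 8.47% in NC, and in HOS the groups of this pair overlap.

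Members with and without the start tract shown above had medians of the same sign in each line. Of the 47 members with the tract at the start, 22 rose and 1 fell in 143B and 41 fell in HOS, with medians of 1.10 and -0.60. Of the 19 with a window and no tract there, 9 rose in 143B, and 14 fell and 2 rose in HOS, with medians of 1.01 and -0.43. The 12 members with no tract within 5 bases include RPS29, RPS26 and RPL7L1, and 7 of them rose in 143B while 9 fell and 2 rose in HOS. Of all tested genes 12.9% rose in 143B, and 23% fell and 45.5% rose in HOS.

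Other mRNAs of the TOP class had medians nearer to zero than the family. Of 26 such genes outside the family, 6 rose and 3 fell in 143B, with a median of 0.09, and 8 rose and 12 fell in HOS, with a median of -0.13. Of all tested genes 12.9% rose and 25.4% fell in 143B, and 45.5% rose and 23% fell in HOS. The genes named next were picked from the 26 with their values known and do not stand for the list. EEF1B2, an exchange factor of elongation, rose by 0.97 in 143B and fell by 0.63 in HOS, the signs of most ribosomal protein genes. EEF2, the translocase of elongation, had the opposite signs: 1008 and 743 FPKM under sgNAT10 in 143B against 2838 and 2481 FPKM in NC (change -1.62, adjusted p = 0.00522), and 1216 and 1134 FPKM against 739 and 833 FPKM in HOS (change 0.58). PABPC1, the poly(A)-binding protein, rose in both lines, by 1.64 and 0.63.

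Regulators of TOP mRNAs showed few calls in 143B. Of 15, CNBP rose and RPS6KB2 fell there, and in HOS 6 rose and 3 fell, shares near those of all tested genes (45.5% and 23%). LARP1, which binds the start of TOP mRNAs, had 39.9 and 36.7 FPKM under sgNAT10 in 143B against 20.1 and 34.0 FPKM in NC (change 0.53, adjusted p = 0.198). In HOS it rose by 0.80, with 52.9 and 47.8 FPKM in the libraries labelled sgNAT10 against 28.3 and 28.8 FPKM in NC. A list of 22 genes held chaperones and importers of ribosomal proteins together with factors of subunit assembly, export and maturation. In it 3 rose and 3 fell in 143B, and 5 rose and 9 fell in HOS. These counts are to be read against the shares of all tested genes, 12.9% and 25.4% in 143B and 45.5% and 23% in HOS. EIF6, which keeps new large subunits from joining small ones, had 1515 and 1490 FPKM under sgNAT10 in 143B against 807 and 523 FPKM in NC (change 1.21, adjusted p = 0.0157).

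Ribosomal proteins that the name rule leaves out went partly with the family. FAU, whose product yields the small subunit protein eS30, had 3616 and 2863 FPKM under sgNAT10 in 143B against 1722 and 1194 FPKM in NC (change 1.17, adjusted p = 0.0273), and fell by 0.43 in HOS. RACK1, a scaffold on the small subunit, had 0.11 in both lines and missed the threshold in each (adjusted p = 0.841 in 143B and 0.241 in HOS).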

How the data were processed

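Polyadenylated RNA of 143B and HOS cells, 2 libraries for each label and line, was analysed from 1 table per line. The authors deposited FPKM values, and per the submitters' processing notes Bowtie2, RSEM and DESeq2 were used with GRCh38, without versions. A gene is listed where over 0.5 FPKM is reached by 2 or more libraries of the line. No counts are given, so no counting interval can be set. Values were taken as log2(FPKM + 1), which understates the change of low genes. Genes reaching 1 FPKM in 2 or more libraries of a line entered limma 3.58.1 in R 4.3.3 (intensity trend, two-sided, Benjamini-Hochberg over all genes, threshold 0.05). Lines were fitted separately, and a joint fit of the 4 groups gave the difference between lines and the mean change. The joint fit used a spread shared by both lines for each gene. The fits of each line were first run on simulated data with independent errors between libraries. Those data lacked the replicate gap that both labels of 143B shared. Transcript lengths and GC contents came from GENCODE release 29, in which all 82 members were found. Shares, ratios and figures were computed in Python 3.11.15.

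Named members are the 6 largest called rises and falls of each line with groups apart, the 6 largest called differences between lines each way, the 5 highest members of each line, and the stalk, 5S, RPSA and paralogue genes. A few genes that this rule or the lists would name are not reported here, though counts, medians and shares over the family include its members. Members and lists were chosen with earlier results of these data known. Alternatives covered pseudocount, filter, scaling, moderation, length and GC content, replicate block and each library left out.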

Additional observations from a re-analysis of the deposited data

Results flagged for a closer look

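The change differed between the lines for most of the family, by the test of the 143B change minus the HOS change with a spread shared by both lines. It was higher in 143B than in HOS for 67 members and lower for 1, where 12.9% of all tested genes were higher and 36.2% lower. Under quantile normalization fewer members were called higher and more lower, as given above. Among the members named by rule, the differences were 3.42 for RPS27, 2.88 for RPL34, 2.88 for RPL39, 2.82 for RPS29 and 2.68 for RPL23 on the log2 scale, and -0.84 for RPLP0. Each was smaller in size once trends with length and GC content were removed. RPS27, RPL34, RPL39, RPS29 and RPL23 each rose in 143B and fell in HOS with groups apart in both lines, whereas RPLP0 fell in both as deposited. Under quantile normalization RPLP0 rose by 0.20 in HOS (adjusted p = 0.00197). Its 143B fall missed the threshold under median-ratio scaling (adjusted p = 0.185). NAT10 RNA was not lower in the HOS libraries labelled sgNAT10, and the part of this in the difference was not tested.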

How the results depend on the processing

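The member median stayed positive in 143B and negative in HOS under every scaling tried, and centring on the family sets their mean to zero by construction. In 143B the 37 rises became 9 centred on the family, 64 with a replicate block (where 24% of all genes rose), 57 with block and length and GC correction, 61 with a spread shared by all libraries, and 8 to 44 with single libraries left out. In HOS the 70 falls became 43 under quantile normalization, 35 centred, 34 with the shared spread, and 62 to 71 with libraries left out. The labels do not say that equal numbers pair libraries, so the block is only a description, and crossing the numbers in HOS gave 66 falls. The 67 positive differences between lines became 34 under quantile normalization, 17 centred, and 54 to 69 with libraries left out. For the mean change, 18 rises became 11 under median-ratio scaling, 9 centred, 30 with length and GC correction, 45 with the block, 40 with both, and 4 to 29 with libraries left out. Its 8 falls became 5 under median-ratio scaling, 13 with the block, 15 with block and correction, and 3 to 10 with libraries left out. The share of all genes called moved between settings too. For rises in 143B it was 12.9% in the main fit, 24% with the block, 27% with length and GC correction and 2.59% centred. For falls in HOS it was 23% in the main fit, 31.8% under quantile normalization and 2.55% centred. The counts above are to be read against such shares, which are not given for every setting. The difference of the large to small subunit ratio in 143B turned to -0.17 without the 5 highest members. Signs turned for some named genes. Quantile normalization gave 0.055 for RPL10, 0.11 for RPL11, 0.28 for RPL8, 0.20 for RPLP0, 0.10 for RPLP2 and 0.063 for RPS2 in HOS, and -0.44 for RPL3, -0.41 for RPLP1 and -0.10 for RPLP2 in 143B. A common sum gave -0.33 for RPL3 and -0.087 for RPS27L in 143B and 0.092 for RPL8 in HOS. Median-ratio scaling gave 0.21 for RPL41 and 0.062 for RPSA in 143B and -0.15 for RPL3 in HOS. The length and GC correction, with or without the block, gave -0.45 for RPS27L in 143B and -0.10 for RPL3 and -0.094 for NAT10 in HOS. Single libraries left out in 143B gave -0.14 to 0.15 for RPL3, -0.29 to 0.15 for RPL41 and -0.28 to 0.74 for RPS27L. Relative to the family, signs turned in 143B to -0.076 for RPL11, -0.89 for RPL3, -0.21 for RPLP1, -0.21 for RPS25 and -0.66 for RPS27L. In HOS they turned to 0.22 for RPL10, 0.080 for RPL11, 0.042 for RPL22, 0.10 for RPL22L1, 0.10 for RPL5, 0.054 for RPL7, 0.45 for RPL8, 0.13 for RPLP0 and 0.31 for RPLP2. The causes were not tested.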

Other observations

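The mitochondrial ribosomal proteins, which build the separate ribosomes of mitochondria from other genes, showed smaller changes with mixed signs in 143B. Of 78 such genes, 19 rose and 12 fell in 143B, with a median of 0.20, and 9 rose and 53 fell in HOS, with a median of -0.35. The difference between lines was positive for 33 and negative for 9 of them. Of all tested genes 12.9% rose and 25.4% fell in 143B, 45.5% rose and 23% fell in HOS, and 12.9% had a positive and 36.2% a negative difference.

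A pseudogene and readthrough transcripts with ribosomal protein sequence were listed beside the family, and their reads may overlap those of the parent genes. RPSAP58, a pseudogene of RPSA, had 1.66 and 6.85 FPKM under sgNAT10 in 143B against 57.0 and 61.6 FPKM in NC, and 6.48 and 6.62 FPKM in the HOS libraries labelled sgNAT10 against 10.39 and 7.09 FPKM in HOS NC. The readthrough of RPL17 into its neighbour was listed at 0 in both 143B sgNAT10 libraries, against 3.25 and 2.64 FPKM in NC. The readthrough of RPS10 had 4.34 and 2.96 FPKM under sgNAT10 in 143B and was listed at 0 in both NC libraries. These genes were chosen after their values were seen.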
